A study of Mus musculus with 6 samples.

Results

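The genes described here are 9 receptors, effectors and transcription factors of hedgehog signalling, namely Ptch1, Boc, Cdon, Gas1, Smo, Sufu, Gli1, Gli2 and Gli3, and the data are the COUP-TFII peaks given to them in mesonephroi of mouse embryos. A peak was given to a gene when that gene was the protein-coding RefSeq gene whose body lay nearest to the centre of the peak, at most 100 kb away. By this rule 34 of 21021 peaks belong to these genes, 18 of 11175 in the XX list and 16 of 9846 in the XY list. COUP-TFII, the orphan nuclear receptor encoded by Nr2f2 (also written NR2F2), was immunoprecipitated from chromatin of CD-1 mesonephroi at E14.5 with a rabbit antibody, in 2 samples from XX and 2 samples from XY embryos, and the bound DNA was sequenced (ChIP-seq). All samples came from pools of tissue of the outbred strain CD-1, with no mutant allele or treatment named, and 2 further samples were input pooled from both sexes. The protocol text for extraction names another factor and fetal ovaries, whereas the titles, the antibody and the tissue entries name COUP-TFII and mesonephroi, which were followed here. The authors deposited 1 list of peak positions per sex over its 2 samples, without a height or score, so replicate spread cannot be given for any value below, read depth is unknown, and differences between the lists have no test. The mesonephros holds mesenchyme, duct epithelium and vessels, and in whole tissue fewer cells with a bound site and less binding per cell cannot be told apart. The tissue could not be checked against marker levels, since positions carry no expression.

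Hedgehog ligands bind Patched 1, the product of Ptch1, with the help of the co-receptors encoded by Boc, Cdon and Gas1. Without ligand, Patched 1 holds the membrane protein Smoothened (Smo) inactive. Once released, Smoothened acts at the primary cilium, Sufu lets go of the Gli proteins, and the balance of Gli activators and repressors sets the output. Gli2 is the main activator, Gli3 is largely processed into a repressor, and Gli1 and Ptch1 are themselves target genes of the pathway. In many developing organs the ligands come from an epithelium and act on the mesenchyme around it, the compartment where COUP-TFII is best known.

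For 7 of the 9 genes RefSeq (GRCm38.p6) lists a promoter, the stretch from 250 bases before to 50 bases after a gene start. At 2 of these 7 a peak reached it. These 2 promoters are printed because they are the only parts of the members' peaks whose sequence was used here. The table holds no promoter for Gli1 and Boc, which could not be scored. Of these 7, 2 overlapped an XY peak and 1 an XX peak, against 4732 (XY) and 4760 (XX) of all 32851 promoters in the table. Both sequences read 5′ to 3′ on the strand of the gene, and capitals mark the part that lies inside a peak. The Gli2 promoter, chr1:119053570-119053869 on the minus strand, shared its first 261 bases with a peak of the XY list and none with the XX list.
Gli2 promoter: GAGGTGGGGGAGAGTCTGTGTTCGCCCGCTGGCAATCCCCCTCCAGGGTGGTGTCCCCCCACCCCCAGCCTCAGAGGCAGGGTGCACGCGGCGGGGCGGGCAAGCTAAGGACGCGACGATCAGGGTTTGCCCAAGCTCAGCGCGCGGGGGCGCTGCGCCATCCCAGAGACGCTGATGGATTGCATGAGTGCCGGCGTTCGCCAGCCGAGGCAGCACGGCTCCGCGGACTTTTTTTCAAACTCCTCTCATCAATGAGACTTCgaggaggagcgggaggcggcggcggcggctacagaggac
The Sufu promoter, chr19:46396646-46396945 on the plus strand, shared its last 80 bases (221 to 300) with the XY peak and its last 21 bases (280 to 300) with the XX peak.
Sufu promoter: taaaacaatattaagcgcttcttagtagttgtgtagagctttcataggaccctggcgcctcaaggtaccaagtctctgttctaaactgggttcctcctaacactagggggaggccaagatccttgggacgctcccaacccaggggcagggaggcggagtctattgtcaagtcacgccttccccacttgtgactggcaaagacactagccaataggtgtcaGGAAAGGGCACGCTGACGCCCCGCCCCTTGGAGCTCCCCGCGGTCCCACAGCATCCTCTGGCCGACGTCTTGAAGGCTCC

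Exact matches on both strands were counted for the core recognition sequences of nuclear receptors, AGGTCA and GGGTCA, for direct repeats of these with 0, 1 or 2 bases between (which contain the single cores), and for the GLI core GACCACCCA. None of these was found in the Gli2 or the Sufu promoter. A GC box (GGGCGG) lay inside the XY peak in both, at bases 94 to 99 in Gli2 and, read on the other strand, at bases 241 to 246 in Sufu. Sufu also had a CCAAT box at bases 208 to 212, outside both peaks. In the table of 32851 promoters, 16.3% held AGGTCA, 13.7% GGGTCA, 0.207% a direct repeat, 0.253% the GLI core, 37.4% CCAAT and 35.7% a GC box. Among the 3625 promoters that overlapped a peak of each list, 70.4% held a GC box, 16.8% AGGTCA, 21.0% GGGTCA, 0.800% a direct repeat, 0.303% the GLI core and 38.8% CCAAT. Of the 7 members' promoters, 5 held a GC box, 3 a CCAAT box and 1 GGGTCA (Cdon). No member's promoter held an ETS (CCGGAA) or AP-1 (TGANTCA) match, found in 14.9% and 7.81% of all promoters and in 38.9% and 3.94% of those overlapping a peak of each list, and 1 (Smo) held the TEAD core GGAATG, found in 14.7% and 10.8%. A match describes the letters of this window only.

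Each of the 9 genes had a peak in the XX list, where 36.9% of the 21887 protein-coding genes had one, and each had a peak in the XY list, where 35.0% did. Each also had a place where an XX and an XY peak overlapped by at least 1 bp, called shared below, as did 28.2% of protein-coding genes. The genes were chosen for their roles with earlier results of these lists known, so 9 of 9 is a description and was not tested. The 34 peaks fell on 22 places, of which 12 were shared, 6 were in the XX list only and 4 in the XY list only. Of the 9 genes, 7 had 1 shared place each. Gli2 had 2, which 3.70% of protein-coding genes reached, and Gas1 had 3, which 0.553% reached. Ptch1 and its co-receptors held 6 of the shared places, Smo and Sufu held 2, and the Gli genes held 4.

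**Figure D1:**
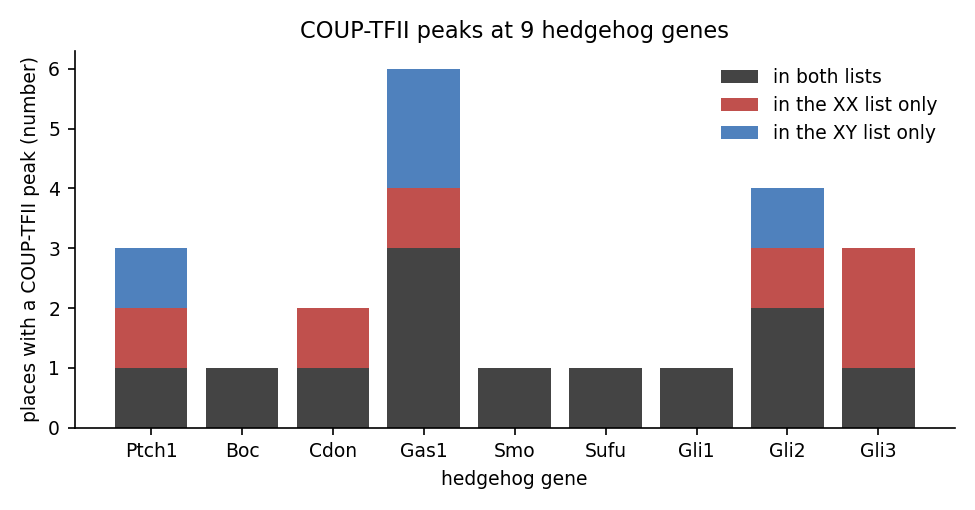
Number of places with a COUP-TFII peak at each hedgehog gene (vertical axis), divided into places in both lists and places in the XX or the XY list only. All 9 genes have a shared place, Gas1 has the most places with 6, and Boc, Smo, Sufu and Gli1 have only a shared one.

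Ptch1 (gene 19206, chromosome 13, 63508328 to 63573460, minus strand) encodes the receptor that binds the ligands and restrains Smoothened. It had 2 peaks in each list, and 1 place was common to both. The shared peak, at 63567836 to 63568135 in the XX list and 63567821 to 63568120 in the XY list, lay inside the gene body, 5.47 and 5.49 kb from its outer 5′ end. Against the gene start in the promoter table, which lies further inside the gene body, it was 2.25 kb (XX) and 2.23 kb (XY) upstream. The other Ptch1 peaks were found in 1 list each and lay inside the gene, an XX-only peak 5.41 kb from the 3′ end and an XY-only peak 32.4 kb from it. These were 27.0 kb apart from each other, and the only place in both lists was the one nearest to the 5′ end.

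Boc (gene 117606, chromosome 16, 44485045 to 44558870) and Cdon (gene 57810, chromosome 9, 35421528 to 35507652, plus strand) encode related cell-surface proteins of the immunoglobulin family that present ligand to Patched 1. Boc had 1 peak in each list, with centres 338 bp (XX) and 218 bp (XY) inside the higher-coordinate end of the gene. The Boc peaks overlapped by 180 bp, less than at any other shared place but that of Gli3. Their centres lay 403 and 523 bp from the microRNA gene Mir3081. Cdon had the closest match of all: its shared peaks started at 35421764 and 35421765, shared 299 bp, and were centred 385 and 386 bp inside the 5′ end of the gene. A second Cdon peak, in the XX list only, was centred 295 bp outside that end and 680 bp from the shared XX peak. The Cdon promoter in the table belongs to a start further into the gene, about 30.2 kb from the centre of the shared peak, and held no peak.

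Gas1 (gene 14451, chromosome 13, 60174405 to 60177535, minus strand) encodes a membrane-anchored co-receptor and is the shortest gene of the set at 3.13 kb. It also had the most peaks, 4 in the XX list and 5 in the XY list. These numbers rest on distant peaks: within 10 kb Gas1 had 1 peak in each list, at the same place, and when noncoding genes could also be the nearest gene it had 1 XX peak and 2 XY peaks, with 1 shared place in either case. Only 0.599% of protein-coding genes had at least 4 XX peaks and 0.105% had at least 5 XY peaks. One shared peak was centred inside the gene, 1.33 kb (XX) and 1.35 kb (XY) past its start. The other 2 shared places lay at a distance on either side, 63.8 and 63.7 kb beyond the 3′ end and 48.7 and 48.8 kb upstream of the start. An XX-only peak lay 50.3 kb beyond the 3′ end, and XY-only peaks lay 12.4 kb beyond the 3′ end and 90.3 kb upstream. The 6 places spanned 157 kb of a stretch without other protein-coding genes: the neighbours Tut7 and Dapk1 lie 351 and 424 kb from Gas1. Noncoding genes do lie there. The distant shared place beyond the 3′ end was inside the lncRNA gene A530065N20Rik, the XX-only peak was inside the lncRNA gene Gm46420, and the upstream shared place was 10.2 kb (XX) and 10.3 kb (XY) from the lncRNA gene Gm5084.

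The limit of 100 kb cuts through the Gas1 stretch. The farthest peak that was counted lay 90.3 kb away. Between 100 and 500 kb, 3 further XX peaks and 5 further XY peaks had a member as their nearest protein-coding gene, and all of them belonged to Gas1. Of these, 3 places were shared, at 110, 121 and 141 kb upstream of Gas1, and 2 were in the XY list only, 154 kb beyond the 3′ end and 181 kb upstream. No other member gained a peak.

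Smo (gene 319757, chromosome 6, 29735497 to 29761366, plus strand) encodes the transducer Smoothened. Its single place was shared, at 29735731 to 29736030 in the XX list and 29735744 to 29736043 in the XY list, with centres 383 and 396 bp past the gene start. Sufu (gene 24069, chromosome 19, 46396896 to 46488804, plus strand) encodes the protein that holds Gli factors in the cytoplasm. Its single place was shared as well, with centres 178 bp (XX) and 119 bp (XY) past the start. The XY peak at Gli2, 139 bp away, was the other one so near to a listed start. The start of Sufu is 1.16 kb from the end of Actr1a, a gene of the dynactin complex, so the Sufu peaks lay 1.33 and 1.27 kb from a second protein-coding gene. No other peak of the 9 genes was that close to one. Neither Smo nor Sufu had a peak in 1 list only.

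The Gli genes encode the zinc finger factors that carry the signal to DNA. Gli1 (gene 14632, chromosome 10, 127329882 to 127341579) had 1 peak in each list, centred 799 bp (XX) and 834 bp (XY) inside its higher-coordinate end. Inhbe, the next protein-coding gene, lay 8.62 and 8.66 kb from these peaks. No peak at Gli1 was in 1 list only.

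Gli2 (gene 14633, chromosome 1, 118834061 to 119054405, minus strand) had 3 peaks in each list. Both shared places were deep inside the gene, 71.8 kb (XX) and 71.7 kb (XY) from its 5′ end for the first and 28.4 kb for the second in both lists. At the 5′ end the lists differed. The XY list had a peak at 119053609 to 119053908, centred 139 bp upstream of the listed gene start, the one that covers most of the promoter printed above. The nearest XX peak to it was 27.8 kb away, at the shared place nearer to the 5′ end. The XX list had a peak 33.4 kb upstream of the gene, at 119087674 to 119087973, and the nearest XY peak to that one was 34.1 kb away.

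Gli3 (gene 14634, chromosome 13, 15463723 to 15730026, plus strand) had 3 peaks in the XX list and 1 in the XY list. The shared place lay 125 kb inside the gene, near its middle and far from either end, with the smallest overlap of the 12 pairs at 150 bp. The XX-only peaks lay beyond the 3′ end, 29.2 and 51.6 kb outside the gene. The farther one was centred 71 bp from an end of the lncRNA gene 4933412O06Rik, and the nearer one 7.07 kb from the noncoding gene LOC115488231. Gli3 was the only one of the 9 genes with more than 1 XX-only peak, a number that 1.62% of protein-coding genes reached. This number rests on distant peaks: both lay more than 10 kb outside the gene and nearer to a noncoding gene than to Gli3. Its listed promoter had no peak in either list.

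**Figure D2:**
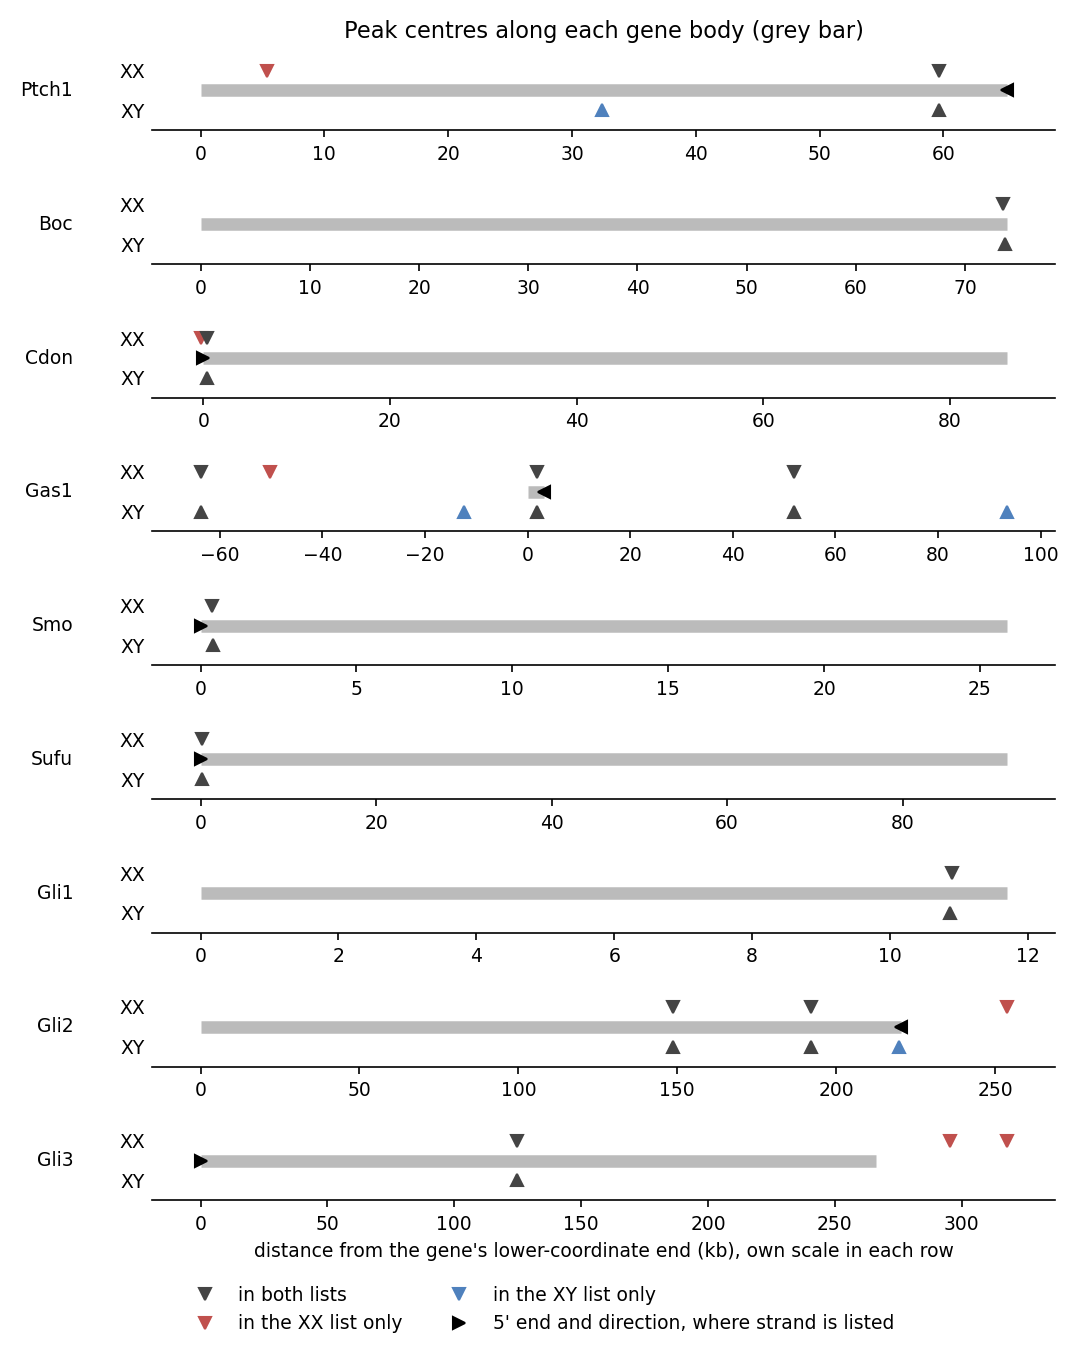
Peak centres along each of the 9 genes, as distance in kb from the lower-coordinate end of the gene body (grey bar, own scale in each row), with XX peaks above and XY peaks below the bar. Peaks of Boc, Cdon, Smo, Sufu and Gli1 sit at 1 end of the gene, those of Gli3 and all but 1 of those of Gli2 lie far inside or outside, and those of Gas1 spread over 157 kb around a gene of 3.13 kb.

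Where both lists had a peak, the positions matched closely. The centres of the 12 pairs lay between 1 bp (Cdon) and 150 bp (Gli3) apart, with a median of 28.0 bp. Over all 7483 shared pairs the median was 33.0 bp. At 8 of the 12 places, 66.7%, the centres were within 50 bp, against 64.9% of all pairs. Boc, at 120 bp, and Gli3, at 150 bp, were more than 100 bp apart, as were 14.1% of all pairs. With pairs limited to 100 bp between centres, Boc and Gli3 would have no shared place and 7 of the 9 genes would keep one. By the rule for shared places, the centres of every pair of 300 bp peaks lie less than 300 bp apart. No difference between the hedgehog pairs and the other pairs was tested.

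**Figure D3:**
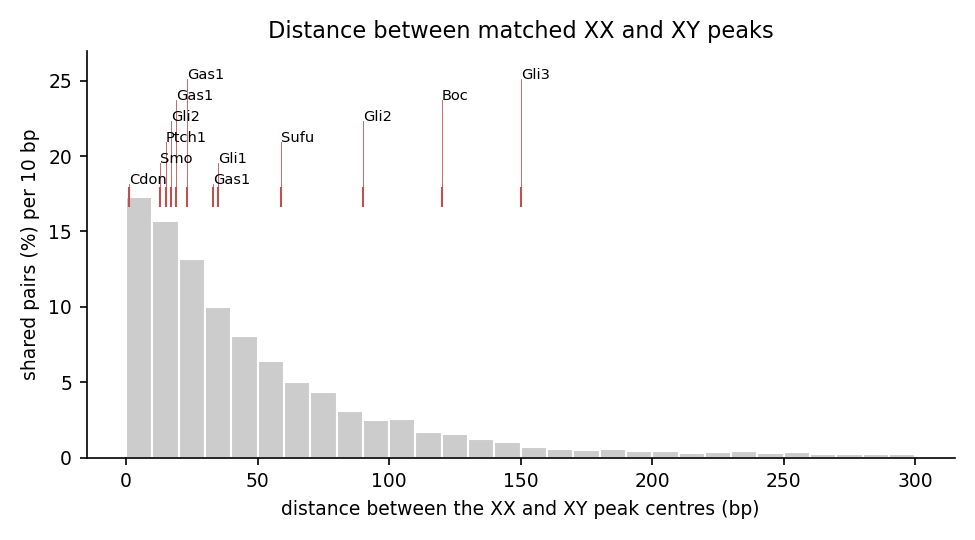
Distance in bp between the centres of matched XX and XY peaks, as the percentage of all 7483 shared pairs per 10 bp (grey bars), with the 12 hedgehog pairs marked by gene in red above. The marks run from 1 bp at Cdon to 150 bp at Gli3, and 8 of them are within 50 bp.

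The shares of peaks found in both lists were like those of the whole lists. Of the 18 XX peaks, 12 were shared, or 66.7% (95% exact Clopper-Pearson interval 41.0 to 86.7), against 67.0% of all XX peaks. Of the 16 XY peaks, 12 were shared, or 75.0% (47.6 to 92.7), against 76.0% of all XY peaks. Intervals cover counting error only, and at these numbers a difference between the hedgehog genes and the lists would be detectable only if it were large. An XX-only peak was found at 5 of the 9 genes (Ptch1, Cdon, Gas1, Gli2 and Gli3), against 13.2% of protein-coding genes. An XY-only peak was found at 3 (Ptch1, Gas1 and Gli2), against 9.55%. Ptch1, Gas1 and Gli2 thus had peaks of either kind beside their shared ones, and Boc, Smo, Sufu and Gli1 had neither. A peak missing from a list may lie below the authors' threshold there, which positions alone do not show.

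The shared places were divided by a cut of 1 kb from a gene end. Of the 12, 5 were within 1 kb of an end of any gene, those at Boc, Cdon, Smo, Sufu and Gli1, or 41.7% (exact interval 15.2 to 72.3), against 67.5% of all 7483, a difference that was not tested. Each of these 5 was at an end of the member itself. With a cut of 2.5 kb the count was 6 of the 12, against 75.5% of all shared peaks. The distance to the nearest gene end ran from 178 bp at Sufu to 124 kb at Gli3 in the XX list, with a median of 2.61 kb against 0.370 kb for all shared peaks. The shared places beyond 1 kb were inside the gene at Ptch1, Gli2, Gli3 and Gas1, or far outside at Gas1. In all, 10 of the 12 were inside a protein-coding gene (83.3%, 51.6 to 97.9), against 5117 of all 7483 shared peaks (68.4%). The bases differ, since only 7148 of the 7483 had a protein-coding gene within 100 kb, as all 12 have by the rule. Counted by gene, each of the 9 had a shared place inside its body, against 21.6% of protein-coding genes, and 5 had one within 1 kb of a gene end, against 21.8%.

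The peaks in 1 list only lay outside the gene at Cdon, Gas1 and Gli3, inside it at Ptch1, and both inside and outside at Gli2. Among the 6 XX-only peaks, 1 was inside its gene (Ptch1), 1 lay 295 bp outside (Cdon), and 4 were more than 10 kb outside (1 at Gas1, 1 at Gli2 and 2 at Gli3). In the whole XX list 19.8% of XX-only peaks with a gene were that far out. Among the 4 XY-only peaks, 2 were inside (Ptch1 and Gli2) and 2 were more than 10 kb outside (both at Gas1), against 11.0% in the whole XY list. With 6 and 4 peaks these counts are descriptions. Of the 10, 5 had a noncoding gene nearer than the member, 4 of them in the XX list only. So did 2 of the 12 shared places. The same share over all peaks was not counted.

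**Figure D4:**
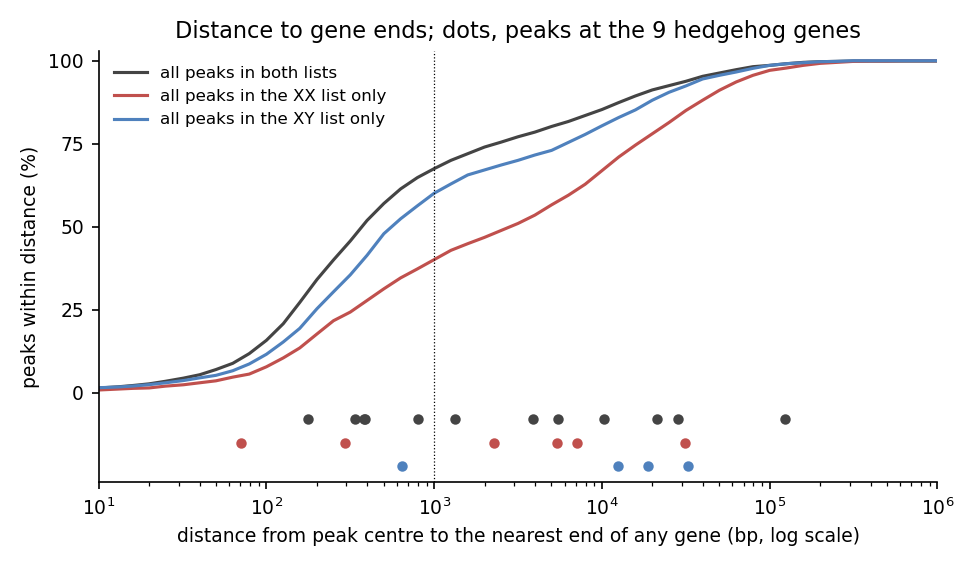
Share of peaks (vertical axis) within a given distance of the nearest end of any gene (log scale, bp), for all peaks in both lists, in the XX list only and in the XY list only, with dots in 3 rows for the 12, 6 and 4 places at the hedgehog genes. At the dotted line of 1 kb the curve of shared peaks is at 67.5%, and 5 of the 12 shared hedgehog dots lie to the left of it.

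Under the rule used, a long gene, or one in an empty region, has a longer stretch from which peaks are given to it. Whether the number of peaks follows that length was not tested. The stretch of genome nearest to each member, within 100 kb, ran from 14 kb at Gli1 to 466 kb at Gli3. Over the 9 genes together there were 0.704 shared places per 100 kb of such stretch, against 0.374 over all protein-coding genes. Gli3, with 0.215, was below that general value. Gli2 had 0.505 and Ptch1, Boc and Cdon had between 0.588 and 0.633. Sufu lay between Boc and Gas1. Gas1 had 1.49, Smo 2.63 and Gli1 7.14, the last 2 resting on 1 place each in a short stretch.

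Peaks at other genes of the pathway were counted by group. The groups held 3 to 11 genes each, too few to compare, and no difference between them was tested. Of 39 further hedgehog genes, 19 had an XX peak (48.7%), 17 an XY peak (43.6%) and 13 a shared one (33.3%). Among all protein-coding genes these shares were 36.9%, 35.0% and 28.2%. None of the ligand genes Shh, Ihh and Dhh had a peak in either list. Of 5 genes for release, lipidation and carriage of ligand, 4 had a shared peak: Disp1, which releases ligand from the cell, with 2, and Hhat, the ligand acyltransferase, and Scube1 and Scube2, which help to carry ligand, with 1 each. Hhip, a decoy for ligand, had no peak in either list. Among kinases and degradation factors, 5 of 9 had a shared peak, with 2 each at Prkaca, the catalytic subunit of protein kinase A, Gsk3b and Btrc, which take part in Gli phosphorylation and turnover. Csnk1a1 and Spop had 1 each. Of 11 genes for the cilium and Gli regulation, 3 had one (Arl13b, Ift88 and Ulk3). Among 8 genes listed as targets in mesenchyme, Ccnd1 alone had a shared peak, and Foxf1, Foxf2 and Foxl1 had no peak in either list. Bcl2 and Bmp4 had peaks in both lists at different places. Peaks in the XX list alone were found at 4 of the 39 genes (Evc, Gpc3, Kif7 and Prkar1a). In the XY list alone they were found at 2 (Lrp2 and Tulp3). Gpc3, with 2 XX peaks, is on chromosome X. Disp1, Hhat, Scube1 and Scube2 had XX-only peaks beside their shared ones, and Btrc an XY-only peak. Among all protein-coding genes, 13.2% had an XX-only and 9.55% an XY-only peak, with or without a shared one. The share with peaks in 1 list alone was not counted. Of the 17 shared peaks at the 39 further genes, 13 lay within 1 kb of an end of any gene (76.5%). Among all 7483 shared peaks 67.5% did, and at the 9 members 5 of 12 did. These differences were not tested. The 13 include a peak given to Btrc from 62494 bp outside it, which lay 724 bp from an end of another gene.

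**Figure D5:**
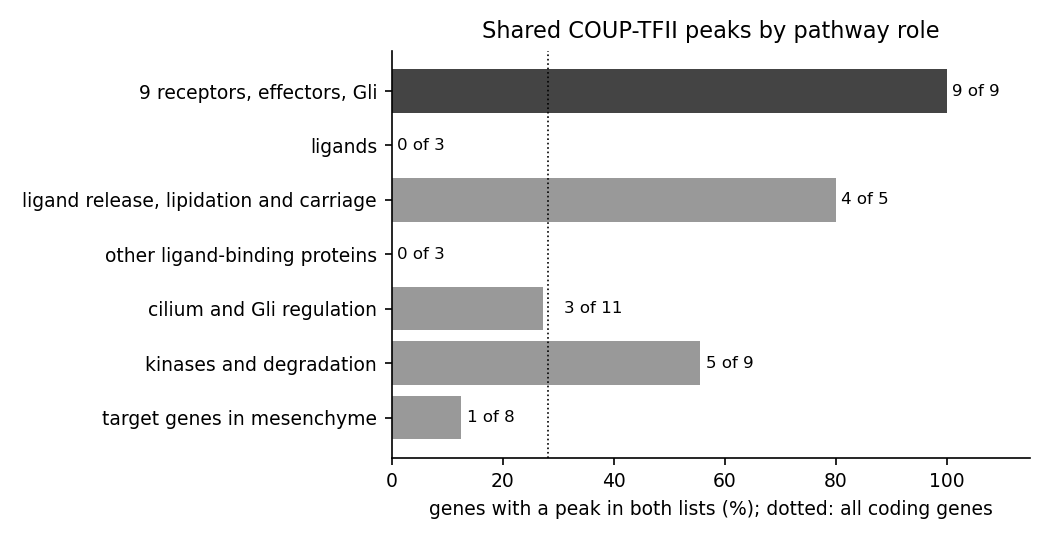
Percentage of genes with a COUP-TFII peak in both lists (horizontal axis) for the 9 receptors, effectors and Gli factors and for 6 other groups of hedgehog genes, with counts beside the bars. The dotted line marks 28.2%, the value for all protein-coding genes, and the 3 ligand genes and the 3 other ligand-binding proteins are at 0.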

How the data were processed

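The measurements are COUP-TFII ChIP-seq peaks of XX and XY mesonephroi at E14.5. The authors deposited peak positions only: each file has a chromosome, a start and an end, all peaks are 300 bp wide, and positions are printed counted from 1. Per the submitters' processing notes, the tools were HOMER 4.10.3, Bowtie 1.2, bedtools 2.24.0, cutadapt and Picard and the build was mm10; which tool did which step is not given in the sources used here, nor is the peak threshold or how both samples of a sex were merged. Input and signal tracks were not used here, and the depth is unknown. Samples were grouped by title.

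Genes, gene ends and promoters came from RefSeq tables for GRCm38.p6, the assembly of mm10 (49960 genes, 21887 of them protein-coding), without exons and introns. Strand came from the promoter table. The centre of a peak is its base 150, and a distance of 0 means inside the gene, with ties given to the nearer gene end. Overlaps were computed in Python 3.11.15 and checked with bedtools 2.31.1, and the assignment was tested on simulated peaks. Stretches of genome were measured every 2 kb. Members and lists were chosen with earlier results of these data known. All members are named with every peak, as are other pathway genes with a shared peak in order of number and up to 4 with a peak in 1 list. Spop, Ulk3 and the pathway genes without a shared peak were named after their values were seen. Of the planned pathway list, 1 gene is not reported here. No test was run, since each sex has 1 list. Peaks were to be searched for motifs where sequence was given, which held for promoters only.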

Additional observations from a re-analysis of the deposited data

How the results depend on the processing

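Shared places were also defined by 50% of each peak in common, by centres within 100 bp or by peaks within 1 kb of each other, and peaks were assigned within 10 or 500 kb, to the nearest gene end or to the nearest gene of any kind. The genes with a shared place then numbered between 7 (centres within 100 bp, without Boc and Gli3) and 9. With the nearest gene end they were 8, without Gli3. The shared places numbered between 10 and 15. Gas1 had 1 shared place in place of 3 within 10 kb and with genes of any kind, and 6 within 500 kb. Within 10 kb of a gene, 2 XX-only and 2 XY-only peaks were left of 6 and 4. With genes of any kind, 2 XX-only peaks were left, because noncoding genes lay nearer to the others. Of 71 alternative values, 68 stayed within 1.5 times the main count or inside its interval, and the 3 just given did not. The 68 include values that could not move, since other definitions of sharing cannot change the counts of a single list. They also include values at the limit itself, such as 12 XX peaks within 10 kb in place of 18. The tally is therefore no measure of robustness. No paired analysis was possible because each sex has 1 list over both of its samples, and for the same reason no sample could be left out. A stricter threshold was not run, since the lists have no score, nor was a search of the central part of peaks.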

Other observations

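The peaks of genes that mark cell types of the region were counted as a description of the lists, since a peak is not a measure of expression. Of 4 genes of mesenchyme, Pdgfra, Col1a1, Tcf21 and Nr2f2 each had 1 shared peak. Shared peaks were found at 2 of 4 endothelial genes (Cdh5 with 1 and Kdr with 2) and at 1 of 6 genes of duct epithelium (Pax8 with 2). They were found at none of 6 genes of gonadal somatic cells, of which Sox9 had 1 XX-only and 1 XY-only peak, and at none of 3 blood genes.

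The next protein-coding gene on the higher-coordinate side of each Gli gene encodes an inhibin beta subunit: Inhbe is 7.82 kb from Gli1, Inhbb is 361 kb from Gli2 and Inhba is 274 kb from Gli3. These neighbours were looked at after the values were seen. Inhba had 1 shared peak, and Inhbb and Inhbe had no peak in either list.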
